A study of Mus musculus with 2 samples.

Results

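The Mir30 family of the mouse is a set of 6 microRNA (miRNA) genes, Mir30a, Mir30b, Mir30c-1, Mir30c-2, Mir30d and Mir30e. The members were the rows whose Ensembl gene identifier carries one of these symbols in GENCODE M21, and all 6 of them were found among the 1973 genes with a row. Their counts came from miRNA sequencing of total RNA of whole forebrain at embryonic day 16.5, in 2 libraries from separate pools of healthy B6NCrl embryos, male and female together. Both libraries, labelled biological replicates 2 and 1, belong to a single group, so no condition is compared. The pool of replicate 2 held 41 embryos per its label, no number is given for replicate 1, and the whole pooled tissue holds neurons, progenitors, glia and vessels together. In such bulk RNA, fewer cells of a type and less RNA per cell cannot be told apart.

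A miRNA is cut from a hairpin precursor, and either arm of the hairpin can give a mature miRNA, named 5p or 3p. The mature strand guides Argonaute to messenger RNAs, chiefly by pairing of its bases 2 to 8, the seed, and so genes with one seed can repress overlapping sets of targets. The Mir30 family is expressed in many tissues, and miR-30a-5p is known to repress Bdnf, the neurotrophin that supports growth and survival of neurons. The human counterpart of the Mir30a hairpin is widely used as a backbone for artificial short hairpin RNAs.

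RefSeq (GRCm38.p6) gave sequences for 4 of the 6 genes, Mir30a, Mir30c-1, Mir30c-2 and Mir30e. Mir30b and Mir30d were not matched. The 5p arms of the matched genes are shown because they carry the seed of the family, with that of Mir384 as the other gene of the table that has it, and capitals mark the seed.
miR-30a-5p: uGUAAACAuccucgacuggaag
miR-30e-5p: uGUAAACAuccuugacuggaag
miR-30c-5p, from Mir30c-1 and from Mir30c-2: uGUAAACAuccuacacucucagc
miR-384-5p: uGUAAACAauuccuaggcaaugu
All 4 of these sequences have the seed GUAAACA, which 5 genes of the table carry in an annotated arm. With positions counted from 1 at the 5′ end of miR-30a-5p, miR-30e-5p differs from it by C13U alone, and the first 12 bases of the 2 sequences are identical. miR-30c-5p shares the same first 12 bases and differs from miR-30a-5p by C13A, G14C, G18C, G19U and A20C over the 22 positions compared. miR-384-5p departs from miR-30a-5p directly after the seed, with 10 differences over 22 positions that begin with U9A.

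The 3p arms divide the matched genes into 2 seed groups, again in capitals.
miR-30a-3p: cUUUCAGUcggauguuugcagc
miR-30e-3p: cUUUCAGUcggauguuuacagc
miR-30c-1-3p: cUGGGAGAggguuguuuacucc
miR-30c-2-3p: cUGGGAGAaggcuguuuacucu
The 3p arms of Mir30a and Mir30e have the seed UUUCAGU and differ by G18A, counted from the 5′ end of miR-30a-3p. Those of Mir30c-1 and Mir30c-2 have the seed UGGGAGA and differ by G9A, U12C and C22U, counted from the 5′ end of miR-30c-1-3p. Among the 1005 hairpins of the table, each of these 3p arms was found in 1 hairpin, its own, as were miR-30a-5p and miR-30e-5p. miR-30c-5p was found in 2 hairpins. The precursors of Mir30c are shown because they share this arm, and capitals mark their longest common stretch, 28 bases that span the whole of miR-30c-5p.
Mir30c-1 (chr4:120769534-120769622, minus strand): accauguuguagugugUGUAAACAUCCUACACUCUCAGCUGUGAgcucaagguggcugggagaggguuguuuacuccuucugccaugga
Mir30c-2 (chr1:23291701-23291784, plus strand): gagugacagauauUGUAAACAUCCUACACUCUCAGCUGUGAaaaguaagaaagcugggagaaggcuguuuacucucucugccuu
Reads that map to more than 1 locus stand in a total of their own in the deposited tables, outside the genes, and these made up 43.3% of all reads in replicate 2 and 40.5% in replicate 1. A read of miR-30c-5p matches both hairpins in full, so the counts of Mir30c-1 and Mir30c-2 are read here as counts of uniquely placed reads and leave the level of miR-30c-5p uncertain. The precursors of Mir30e and Mir30a share no identical stretch longer than 18 bases, shorter than a mature arm of 22. Only identical stretches were compared, and the aligner is not known, so reads of either gene placed with a mismatch were not checked. Both precursors are shown with their mature arms in capitals.
Mir30e (chr4:120772606-120772697, minus strand): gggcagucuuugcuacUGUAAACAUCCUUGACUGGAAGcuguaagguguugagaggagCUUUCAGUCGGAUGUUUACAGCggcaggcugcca
Mir30a (chr1:23272269-23272339, plus strand): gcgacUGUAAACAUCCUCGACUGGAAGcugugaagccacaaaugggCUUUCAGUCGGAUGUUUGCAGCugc

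The 6 genes lie at 3 loci, with a pair of neighbours on one strand at each (mm10, GENCODE M21 positions). Mir30e and Mir30c-1 lie 3.1 kb apart on chromosome 4, both in introns of Nfyc, which encodes a subunit of the CCAAT-binding factor NF-Y. Mir30d (chr15:68341208-68341289) and Mir30b (chr15:68337415-68337510) lie 3.8 kb apart on chromosome 15. Mir30d overlaps an exon of the long non-coding RNA gene Gm20732, and also an exon of Gm37296, which covers only part of Mir30d. Mir30b overlaps an exon of the non-coding gene Gm26621, which covers only part of Mir30b. Mir30a and Mir30c-2 lie 19.4 kb apart on chromosome 1, where Mir30a is outside annotated genes and Mir30c-2 overlaps an exon of the long non-coding RNA gene Gm27028. No other gene with a row lies within 10 kb of a member on the same strand. Such an overlap describes the annotation and does not show from which transcript a miRNA is cut.

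**Figure D1:**
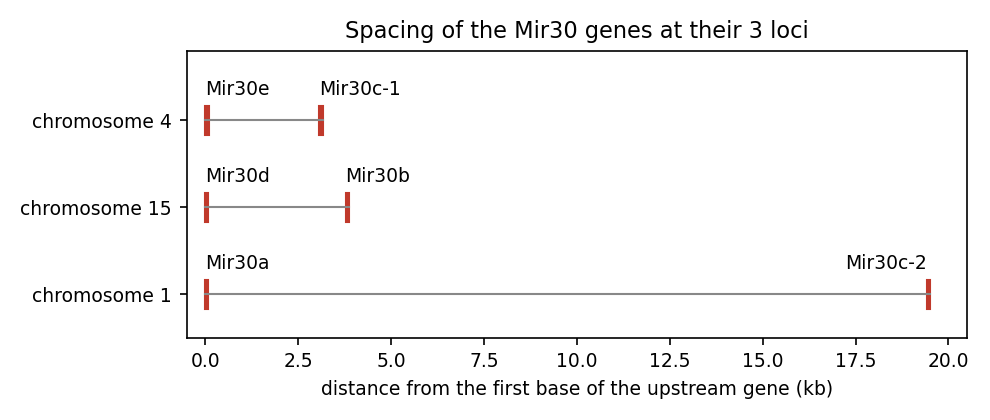
Spacing of the Mir30 genes at their 3 loci, drawn to scale as distance in kb from the first base of the upstream gene in the direction of transcription. Each red block is a precursor, and the neighbours lie 3.1 kb apart on chromosome 4, 3.8 kb on chromosome 15 and 19.4 kb on chromosome 1.

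The libraries held 4158686 gene-strand counts in replicate 2 and 5060112 in replicate 1. Levels are given as CPM, counts per 1000000 gene-strand counts of a library. Of a list of 12 brain miRNA genes, 11 had a row and 10 of these reached 5 counts in each library. The summed level of this brain list was 24351 CPM in replicate 2 and 25700.4 CPM in replicate 1. Mir137 was its highest gene, at 11457 CPM in replicate 2 and 13239 CPM in replicate 1. By uniquely placed reads, Mir124a-1, Mir124a-2, Mir124a-3 and Mir9-2 of this list lay between 0.96 and 4.94 CPM in both libraries. Of 17 genes that mark liver, muscle, blood and microglia, endothelium or the Hox clusters of hindbrain and trunk, 15 had a row and 11 reached 5 counts in each library, with a summed level of 19955 CPM in replicate 2 and 17874 CPM in replicate 1. Most of that was Mir126a of endothelium, at 18999 CPM in replicate 2 and 16611 CPM in replicate 1. Of the 4 muscle genes with a row, Mir206 was at 25.2 CPM in replicate 2 and 18.8 CPM in replicate 1, and Mir1a-1, Mir133a-1 and Mir133a-2 had no count. Mir122 of hepatocytes was at 64.9 CPM in replicate 2 and 97.8 CPM in replicate 1. The genes of the Hox clusters summed to 492 CPM in replicate 2 and 768 CPM in replicate 1. Those of blood and microglia summed to 374 CPM in replicate 2 and 378 CPM in replicate 1. The part of these cell types in the levels of the Mir30 genes was not tested.

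By uniquely placed reads, the family held 4.34% ± 0.310 of the gene-strand counts (SD, n = 2). It had 171495 counts in replicate 2, a share of 4.12% with an exact Clopper-Pearson 95% interval of 4.10% to 4.14%, and 230867 counts in replicate 1, a share of 4.56% with an interval of 4.54% to 4.58%. These intervals, like all others here, cover counting error only. Mir30e, Mir30a and Mir30d carried nearly all of it, at 4.32% ± 0.310 of the gene-strand counts together, and Mir30b and the Mir30c genes held 0.0219% ± 0.000203. Adding Mir384, the other gene with the seed, brought the share to 4.37% ± 0.313. All 6 genes reached 5 counts in each library, and none had a count on the opposite strand in either.

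Mir30e was the most abundant member. It had 95137 counts or 22877 CPM in replicate 2 and 128929 counts or 25479 CPM in replicate 1, a mean of 24178 ± 1840.4 CPM (SD, n = 2), and ranked 8th of all genes in both libraries. It made up 55.7% ± 0.262 of the family's counts. GENCODE M21 places a further miRNA gene, Mir30f, on the other strand at the position of Mir30e; with no opposite-strand count at Mir30e in either library, no uniquely placed read was counted on that strand there.

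Mir30a, the member whose 5p arm differs from that of Mir30e by a single base, had 48437 counts or 11647 CPM in replicate 2 and 62933 counts or 12437 CPM in replicate 1. Its mean was 12042 ± 559 CPM, or 27.8% ± 0.696 of the family's counts, and it ranked 19th in both libraries. Mir30d had 27005 counts or 6494 CPM in replicate 2 and 37905 counts or 7491 CPM in replicate 1, a mean of 6992 ± 705 CPM and 16.1% ± 0.475 of the family's counts. The levels of these 3 genes did not overlap between genes in the 2 libraries. The mean level of Mir30e was 2.01 times that of Mir30a, which was 1.72 times that of Mir30d.

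The other 3 members were far lower in uniquely placed reads. Mir30b, the neighbour of Mir30d, had 442 counts or 106 CPM in replicate 2 and 635 counts or 125 CPM in replicate 1, a mean of 116 ± 13.6 CPM. Mir30c-1 had 270 counts or 64.9 CPM in replicate 2 and 297 counts or 58.7 CPM in replicate 1, a mean of 61.8 ± 4.41 CPM. Mir30c-2 had 204 counts or 49.1 CPM in replicate 2 and 168 counts or 33.2 CPM in replicate 1, a mean of 41.1 ± 11.2 CPM. The largest step in the order lay between Mir30d and Mir30b, whose mean CPM differed 60.3 times. The ranges of neighbours in the order did not overlap at any step, and the closest were Mir30c-1 and Mir30c-2, whose lowest and highest values were 58.7 and 49.1 CPM. Per 100 bases of the precursor, mean levels were 26281 CPM for Mir30e, 16961 CPM for Mir30a and 8527 CPM for Mir30d. They were 121 CPM for Mir30b, 69.4 CPM for Mir30c-1 and 48.96 CPM for Mir30c-2. In proportion, the precursors differ less in length than neighbours in the order differ in mean level at any step. Dividing by length could thus not change the order, and it is no check of it. For the Mir30c genes this order rests on reads outside the 28 shared bases or reaching beyond them. For Mir30b and Mir30d no sequence was matched, so stretches shared with other hairpins were not checked.

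**Figure D2:**
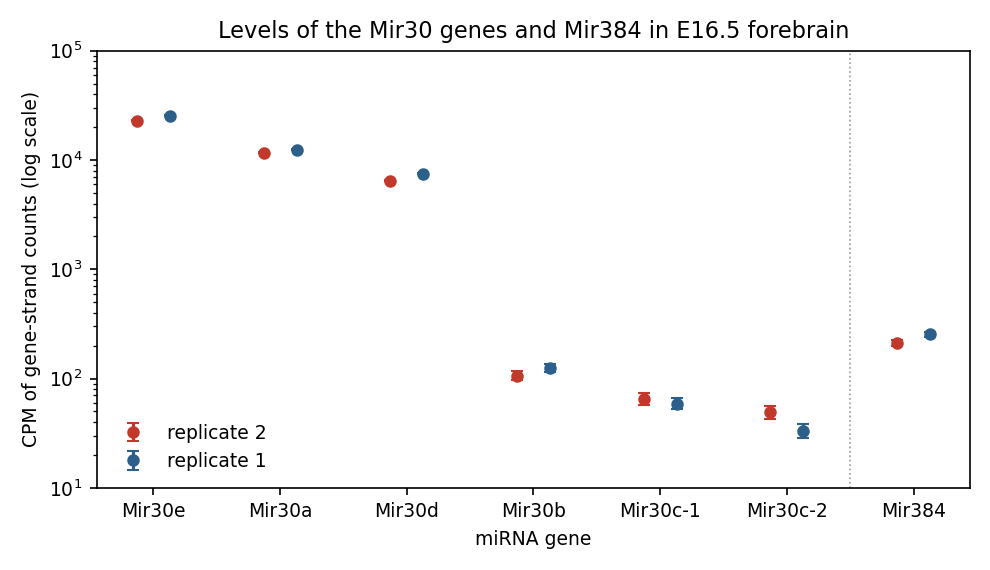
Level of each Mir30 gene and of Mir384 in CPM of gene-strand counts on a log axis, with replicate 2 in red at the left and replicate 1 in blue at the right of each gene. Bars are exact Clopper-Pearson 95% intervals of counting error, smaller than the points for the abundant genes; Mir30e, Mir30a and Mir30d span 6494 to 25479 CPM and the other Mir30 genes 33.2 to 125 CPM.

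Among the 703 genes with a count in either library, Mir30e, Mir30a and Mir30d ranked 8th, 19th and 29th by mean CPM, and Mir30b, Mir30c-1 and Mir30c-2 ranked 189th, 227th and 248th. Mir384, a gene on the X chromosome known for its expression in brain, stood between these groups at rank 151. It had 886 counts or 213 CPM in replicate 2 and 1287 counts or 254 CPM in replicate 1, a mean of 234 ± 29.2 CPM. Its level was thus above that of Mir30b and of both Mir30c genes in each library, by uniquely placed reads.

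**Figure D3:**
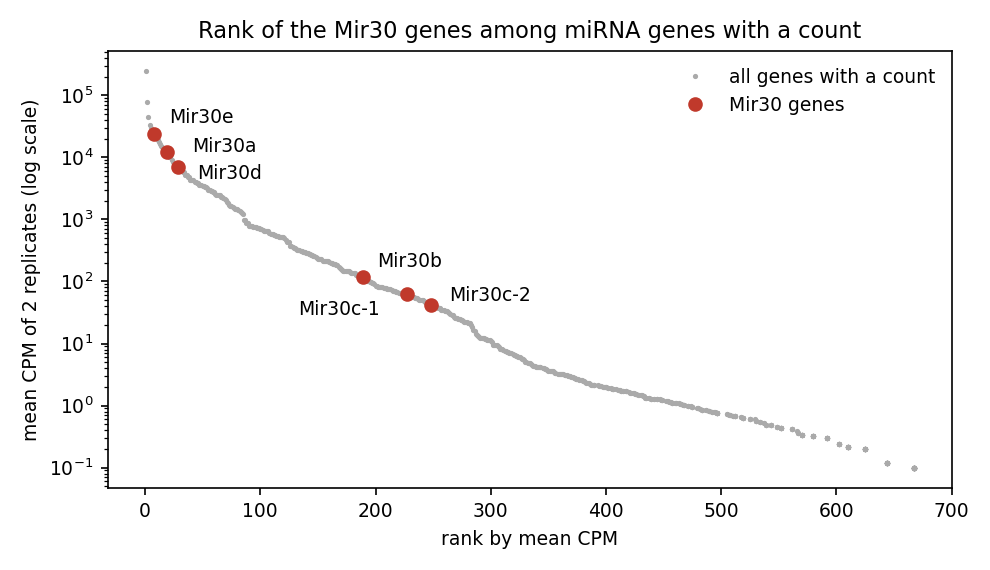
Mean CPM of 2 replicates on a log axis against rank for the 703 miRNA genes with a count, with the Mir30 genes in red. Mir30e, Mir30a and Mir30d lie among the 30 highest genes, at ranks 8, 19 and 29, and the others at ranks 189 to 248.

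The neighbours at each locus differed greatly in uniquely placed reads, and their ratio within a library does not depend on scaling. It does depend on which reads can be placed. As miR-30c-5p lies in 2 hairpins, the shares of the Mir30c genes leave the level of that arm uncertain. Mir30c-1 gave 0.283% of the counts it shared with Mir30e in replicate 2 (exact Clopper-Pearson 95% interval 0.250% to 0.319%) and 0.230% in replicate 1 (0.204% to 0.257%). Mir30b gave 1.61% of the counts it shared with Mir30d in replicate 2 (1.46% to 1.77%) and 1.65% in replicate 1 (1.52% to 1.78%). The intervals of the libraries overlapped at both of these loci, for Mir30c-1 only between 0.250% and 0.257%. Overlap does not show equal shares, and the difference between the libraries was not tested. At the wider locus on chromosome 1, added here after the counts were known, Mir30c-2 gave 0.419% of the counts it shared with Mir30a in replicate 2 (0.364% to 0.481%) and 0.266% in replicate 1 (0.228% to 0.310%), and these intervals did not overlap.

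The members were next compared between the libraries. An exact binomial test (two-sided) on both counts of a gene, with library totals scaled by TMM (trimmed mean of M values) and Benjamini-Hochberg adjustment over the 466 genes whose summed count reached 10, asks whether a gene differed beyond counting noise. It compares 2 libraries, not conditions, and allows for no spread between pools. It called 4 of the 6 members at an adjusted p under 0.05, against 45.3% of all tested genes. Of the members 3 were higher in replicate 2 and 1 was lower, against 23.4% and 21.9% of all tested genes. With unscaled totals, which shifted the log2 ratios by -0.14, 1 member was called higher and 4 lower, and 67 of 222 called genes were higher and 155 lower, in place of 109 and 102 of 211.

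With TMM scaling, Mir30e, Mir30a and Mir30d were close between the pools. Their log2 ratios of replicate 2 over replicate 1 were -0.01 for Mir30e, 0.05 for Mir30a and -0.06 for Mir30d. The test called Mir30a (adjusted p = 6.02e-08, exact binomial) and Mir30d (adjusted p = 2.35e-07), whose counts are large enough for differences of a few percent to pass, and not Mir30e (adjusted p = 0.126). The direction of Mir30a rests on the scaling, since its log2 ratio was -0.0947 with unscaled totals. On those totals Mir30e was at -0.155 and Mir30d at -0.206. With TMM, the median absolute log2 ratio was 0.24 among the 273 genes that reached 100 counts in each library. Of these genes, 231 to 263 had a larger one than Mir30e, Mir30a and Mir30d. Mir30b had a log2 ratio of -0.10 with a 95% counting interval of -0.27 to 0.08 and was not called (adjusted p = 0.455), though with unscaled totals it was called at -0.24 (adjusted p = 0.0174).

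Both Mir30c genes were higher in replicate 2. Mir30c-2 had the largest ratio of the members, 0.71 on the log2 scale with a 95% counting interval of 0.41 to 1.01 and an adjusted p of 9.29e-06 (exact binomial). Among the same 273 genes, 17 had a larger absolute ratio. Mir30c-1 had a log2 ratio of 0.29 with an interval of 0.05 to 0.53 and an adjusted p of 0.0392. That call was lost with unscaled totals (adjusted p = 0.374), with DESeq2 size factors (adjusted p = 0.0525) and with all 703 genes tested (adjusted p = 0.0583). Mir384 had a log2 ratio of -0.11 and was not called (adjusted p = 0.1496).

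**Figure D4:**
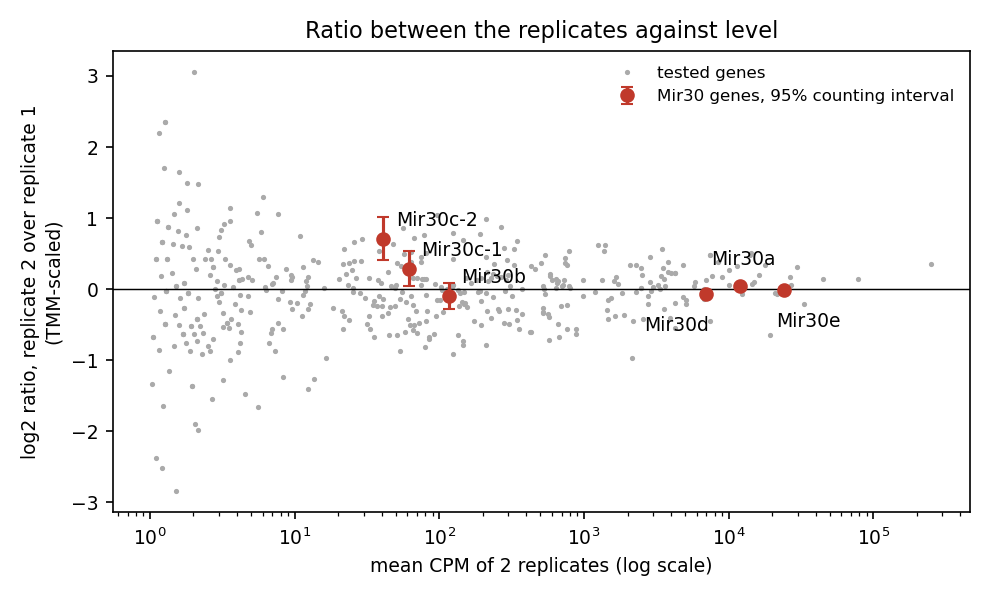
Log2 ratio of replicate 2 over replicate 1, TMM-scaled, against mean CPM on a log axis for the 466 tested genes, with the Mir30 genes in red and their 95% counting intervals. Mir30e, Mir30a and Mir30d lie within 0.1 of 0, and Mir30c-2 lies highest of the members at 0.71.

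**Figure D5:**
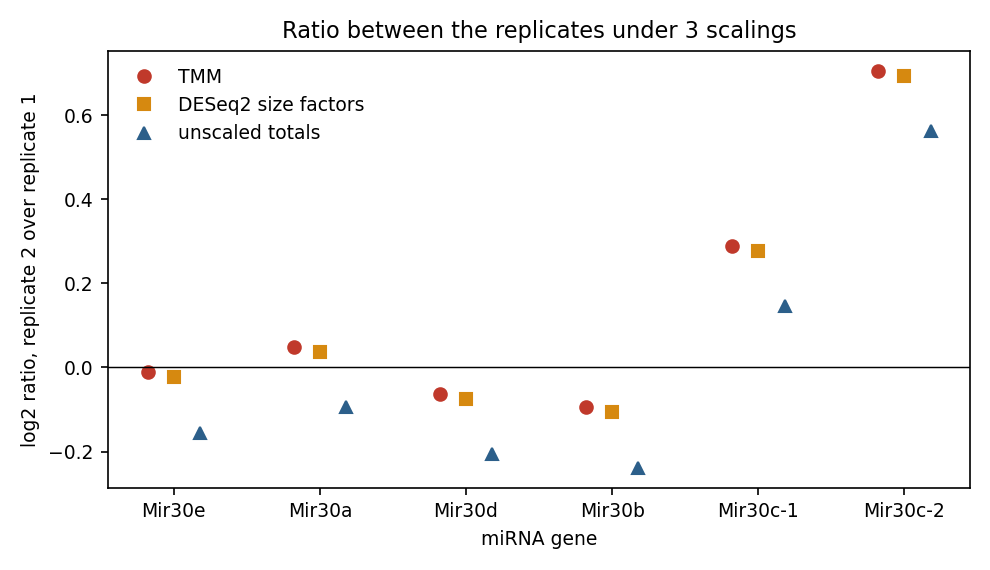
Log2 ratio of replicate 2 over replicate 1 for each Mir30 gene under TMM, DESeq2 size factors and unscaled library totals. Unscaled totals lower every ratio by about 0.14, which takes Mir30a to -0.0947, and both Mir30c genes stay above 0 under all 3 scalings.

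For each member, the gene with the closest levels was taken as the one with the smallest Euclidean distance of log2(CPM + 1) over the 2 libraries, among 432 other genes that reached 5 counts in each. It was Mir130a for Mir30e at a distance of 0.22, Mir137 for Mir30a at 0.09 and Mir181d for Mir30d at 0.07. It was Mir181a-2 for Mir30b at 0.08, Mir5099 for Mir30c-1 at 0.08 and Mir450b for Mir30c-2 at 0.18. With 2 libraries of one tissue, such likeness describes the level and nothing more.

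The Mir30 genes held more of the uniquely placed reads than the Mir181 family, which has as many genes, and than the smaller Mir26 family. Against the family's 4.34% ± 0.310 of the gene-strand counts, the 6 genes of the Mir181 family held 3.12% ± 0.139 and the 3 genes of the Mir26 family 1.63% ± 0.0392 (SD, n = 2). In replicate 2 the shares were 4.12% for Mir30, 3.03% for Mir181 and 1.65% for Mir26, and in replicate 1 they were 4.56%, 3.22% and 1.599%, so the families did not overlap. Within the Mir26 family, mean levels were 16226 CPM for Mir26b, 35.3 CPM for Mir26a-2 and 6.27 CPM for Mir26a-1. Within the Mir181 family Mir181c was highest, at a mean of 14587.5 CPM, and Mir181d was at 6807 CPM. The mean was 6954 CPM for Mir181a-1 and 113 CPM for Mir181a-2, and 2762 CPM for Mir181b-2 and 23.4 CPM for Mir181b-1. Reads that map to several loci are missing from all 3 sums. The part missing from each family was not measured, so the order of the families holds for uniquely placed reads only. With 2 libraries no test of the difference was made.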

How the data were processed

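MiRNA reads from 2 forebrain libraries were analysed from the deposited tables of raw read counts per gene. The assembly was mm10 and the annotation GENCODE M4, per the deposited descriptions. Aligner, counter and trimming were not given in the sources used here, and the labels give a size range below 30 without a unit. Each table holds counts without strand, on the gene strand (used here) and on the opposite strand. Rows of unassigned reads, which held 61.4% of all reads in replicate 2 and 62.1% in replicate 1, were kept out of totals and tests. A count of 0 allows up to 0.721 CPM in replicate 2 and 0.593 CPM in replicate 1, at a limit of 3 counts.

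Symbols and positions came from GENCODE M21 by gene identifier without its version (1894 of 1973 genes matched), and sequences from the RefSeq table of GRCm38.p6. TMM totals were computed in edgeR 4.0.16 and size factors in DESeq2 1.42.0 under R 4.3.3, and exact tests and intervals in scipy 1.17.1. Log2 ratios had 0.5 added to each count. The exact test was tried on simulated data that held counting noise only. Those data had no spread between pools, so they cannot show how the test behaves with it. With a single group, no quasi-likelihood contrast could be fitted. Named genes were the 6 members, other genes with the 5p seed or within 10 kb on the same strand, the gene closest in level to each member, and the Mir26 and Mir181 families as sums. Mean levels of single Mir26 and Mir181 genes were added after the counts were known. Members and lists were chosen with earlier results of these data known. Alternatives were the scaling, the filter on low counts, the strand column, the denominator and leaving out each replicate.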

Additional observations from a re-analysis of the deposited data

How the results depend on the processing

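The share of the Mir30 family was 4.26% with counts that ignore strand. As no member had an opposite-strand count, that setting changes only the total. Leaving out either replicate returns the share of the other, 4.12% or 4.56%. With 2 libraries such a value always lies within 1 SD of the mean, so it is no check. Over all reads in the tables, unassigned ones included, the share of the family was 1.63%, since that total is larger by construction. The count of genes called between the replicates stayed within 1.5 times its value under the alternatives tried, between 203 and 225 genes. The share called moved with the filter, because the number of tested genes changed. It was 45.3% of 466 genes in the main setting. With a summed count of at least 100 it was 67.9% of 299 genes, and with at least 1 it was 29.4% of 703. Of the ratios of single members, that of Mir30a reversed with unscaled totals, to -0.0947. Mir30e was called with unscaled totals (log2 ratio -0.16, adjusted p = 1.40e-139, exact binomial test) and with DESeq2 size factors (-0.02, adjusted p = 0.000417). Mir30d and Mir30c-2 kept their direction and their call under all 5 alternatives. No paired analysis was possible because the libraries form a single group. Counts of 168 to 635 limit the precision of Mir30b and the Mir30c genes, and reads that map to several loci are outside all of these values.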
